A study of Homo sapiens with 3 samples.

Results

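The hypoxia response genes described here are 32 genes outside glycolysis, chosen by name from the known pathway, among 26334 genes in the deposited tables. Earlier results of these data were known when the genes were chosen. The genes comprise subunits of the hypoxia-inducible factors (HIFs), the oxygen sensors and breakdown factors, and target genes. All 32 were found, 31 under the listed symbol and ERO1L under its current symbol ERO1A. A HIF is a pair of an alpha subunit, HIF1A or EPAS1, and the partner ARNT. While oxygen is present, prolyl hydroxylases of the EGLN family mark the alpha subunit, VHL directs its breakdown, and HIF1AN blocks its activity. When oxygen is short the alpha subunit persists, binds the core motif ACGTG or GCGTG and raises transcription of genes for blood vessel growth, mitochondrial turnover, collagen folding and feedback on the response itself. Much of this control acts on the protein, so the RNA level of a HIF subunit is not a measure of HIF activity.

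RNA was sequenced from K562, an established cell line of chronic myelogenous leukaemia, in 3 libraries. The cells had been transduced, by retrovirus made in GP2-293 packaging cells, with the pMYs-IG vector left empty, with the vector carrying EVI1-WT, or with the vector carrying EVI1+18, and each EVI1 form bore 3 copies of an HA tag. EVI1 is a zinc finger transcription factor coded by MECOM, and the series title ties EVI1+18 to aberrant splicing. GFP-positive cells were sorted 3 days after infection and then cultured, so each library comes from a sorted pool of 1 line with a stable retroviral vector. The labels give all 3 libraries as retroviral overexpression, although the empty vector carries no EVI1. No oxygen level is stated in the labels, and no library is labelled as hypoxic.

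Each construct had 1 library, so there is no spread between replicates, no test was run, and every ratio compares libraries rather than constructs. Library totals lay between 17794423 and 20772348 counts. MECOM was at 43.9, 56.9 and 97.3 CPM (counts relative to the scaled library total) in the empty vector, EVI1-WT and EVI1+18 libraries, with ratios to empty vector of 1.30 (1.18 to 1.42) and 2.21 (2.04 to 2.41). Its gene-level counts do not separate vector RNA from RNA of the cell's own gene. Of the 10 K562 and erythroid markers examined, all were detected, and their summed level was 12028, 17048 and 16195 CPM in the same order. Most of that sum was globin RNA (HBG1, HBG2 and HBE1), and the markers did not move as one. HBE1 was at 1.94 and 1.02 of empty vector, while GATA1 was at 0.900 and 0.970 and LMO2 at 0.757 and 0.830. Among 5 markers of HEK293-type cells NEFM, INA and PAX2 were at 0 throughout and NEFL had at most 1 count, while NEFH lay between 82.5 and 103 CPM. Of 7 stromal or epithelial markers EPCAM lay between 107 and 115 CPM, LUM was at 0 and DCN had at most 1 count, but COL1A2 had 93, 2 and 20 counts, far fewer in the EVI1 libraries. Of 5 lymphoid markers MS4A1 was at 0 and CD3D was at 9.92, 3.23 and 3.53 CPM. In RNA of whole cultures, fewer cells of a kind and less RNA per cell cannot be told apart.

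A ratio below is the ratio of scaled counts, followed in brackets by its exact 95% counting interval, which covers counting error only. A gene is called higher or lower when its ratio is at least 2-fold, among the 10406 genes whose mean count across libraries reached 50. This minimum was met by 24 of the 32 genes. The other 8 were ADM, CA9, PLOD2, LOX, LOXL2, RORA, NDRG1 and INSR, of which LOX and RORA had no count in any library. Of the 24, 23 had at least 50 counts in each library. ANKRD37 had 15 counts with empty vector and met the minimum only through the EVI1 libraries, so its call is given apart where it matters.

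ANKRD37 was at least 2-fold higher than with empty vector in both EVI1 libraries, and the targets EGLN3, BNIP3, BNIP3L, P4HA1 and P4HA2 were at least 1.5-fold higher in both. Of the 8 genes that make or restrain HIF, the 7 other than EGLN3 stayed under 1.5-fold in each comparison. Among the genes under the minimum count, NDRG1, INSR, PLOD2 and LOXL2 had ratios below 1 in both EVI1 libraries. The intervals of LOXL2, and that of PLOD2 with EVI1+18, included 1. CA9 went the other way, with 0, 10 and 7 counts. With EVI1-WT, 1 of 24 genes was at least 2-fold higher than with empty vector, beside 0.702% of all genes described, and 0 were at least 2-fold lower, beside 1.70%. The 1 gene was ANKRD37, so that 0 of 23 remained without it. At 1.5-fold, 6 of 24 were higher (5 of 23 without ANKRD37), beside 2.37% of all genes, and 0 lower, beside 3.95%. The 6 were EGLN3, BNIP3, BNIP3L, P4HA1, P4HA2 and ANKRD37. The median log2 ratio was 0.22, beside 0.01 over all genes described, and 0.19 without ANKRD37.

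With EVI1+18, ANKRD37, P4HA1 and VEGFA were at least 2-fold higher than with empty vector, 3 of 24 (2 of 23 without ANKRD37) beside 1.01% of all genes, and 0 were at least 2-fold lower, beside 0.836%. At 1.5-fold 8 of 24 were higher (7 of 23 without ANKRD37), beside 3.30% of all genes, and 0 lower, beside 2.23%. The 8 were EGLN3, VEGFA, BNIP3, BNIP3L, P4HA1, P4HA2, BHLHE40 and ANKRD37. The median log2 ratio was 0.44, beside 0.00 over all genes, and 0.41 without ANKRD37. The median depended on the minimum count, since it was 0.25 over the 27 genes whose mean reached 10. Ratios above 1 were found for 19 of 24 genes in each of these comparisons. Over all genes described the share above 1 was 52.6% with EVI1-WT and 49.9% with EVI1+18. The deposited TPM values gave 16 of 24 with EVI1-WT and 17 of 24 with EVI1+18. TPM also moved the median log2 ratio of all genes described, to -0.067 and -0.104. The comparisons share the empty vector library, so a deviation of that one library would enter both.

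Between the EVI1 libraries BHLHE40, VEGFA and ANKRD37 stood apart, each higher with EVI1+18, while the BNIP3 and P4HA2 levels were close. BHLHE40 was the 1 gene of 24 that was at least 2-fold higher with EVI1+18, beside 0.951% of all genes, and 0 were at least 2-fold lower, beside 0.211%. At 1.5-fold 3 of 24 were higher (2 of 23 without ANKRD37), beside 3.57%, and 0 lower, beside 0.846%. The 3 were BHLHE40, ANKRD37 and VEGFA. The median log2 ratio was 0.13, beside -0.01 over all genes. This comparison uses the same EVI1 libraries as the other comparisons. The sum of K562 and erythroid markers, mostly globin, was above empty vector in both EVI1 libraries, as were these target genes against empty vector except BHLHE40 with EVI1-WT. Between the EVI1 libraries it was lower with EVI1+18, where BHLHE40, VEGFA and ANKRD37 were higher. Its part in the ratios was not tested.

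**Figure D1:**
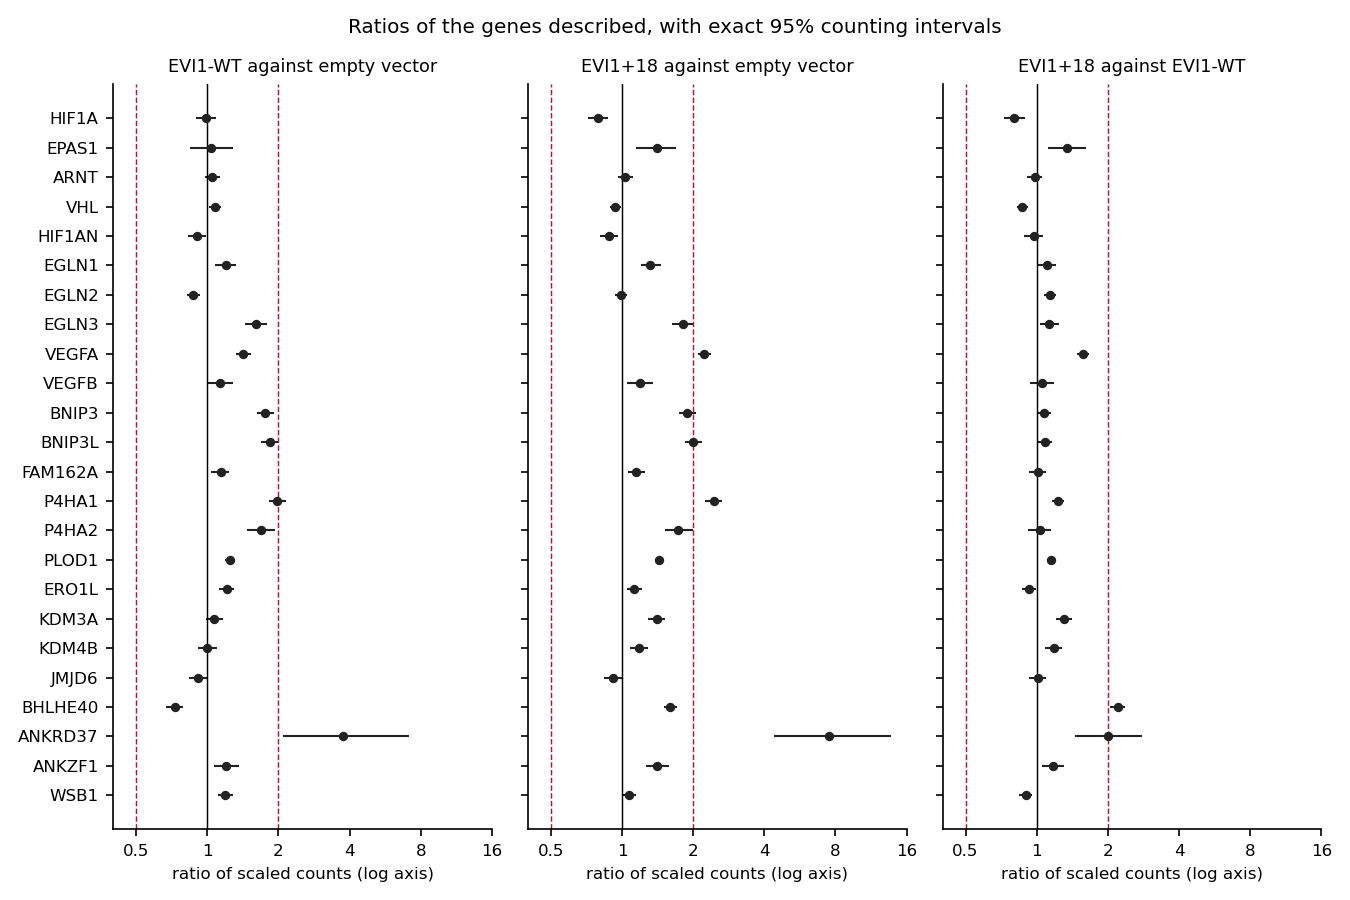
Ratio of scaled counts (log axis) for the 24 genes whose mean count reached 50, with exact 95% counting intervals, in the 3 comparisons; dashed lines mark 2-fold. ANKRD37 stands farthest right against empty vector, at 3.76 and 7.5, the subunits, sensors and breakdown factors other than EGLN3 lie between 0.794 and 1.40, and BHLHE40 lies below 1 only in the left panel, at 0.728.

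**Figure D2:**
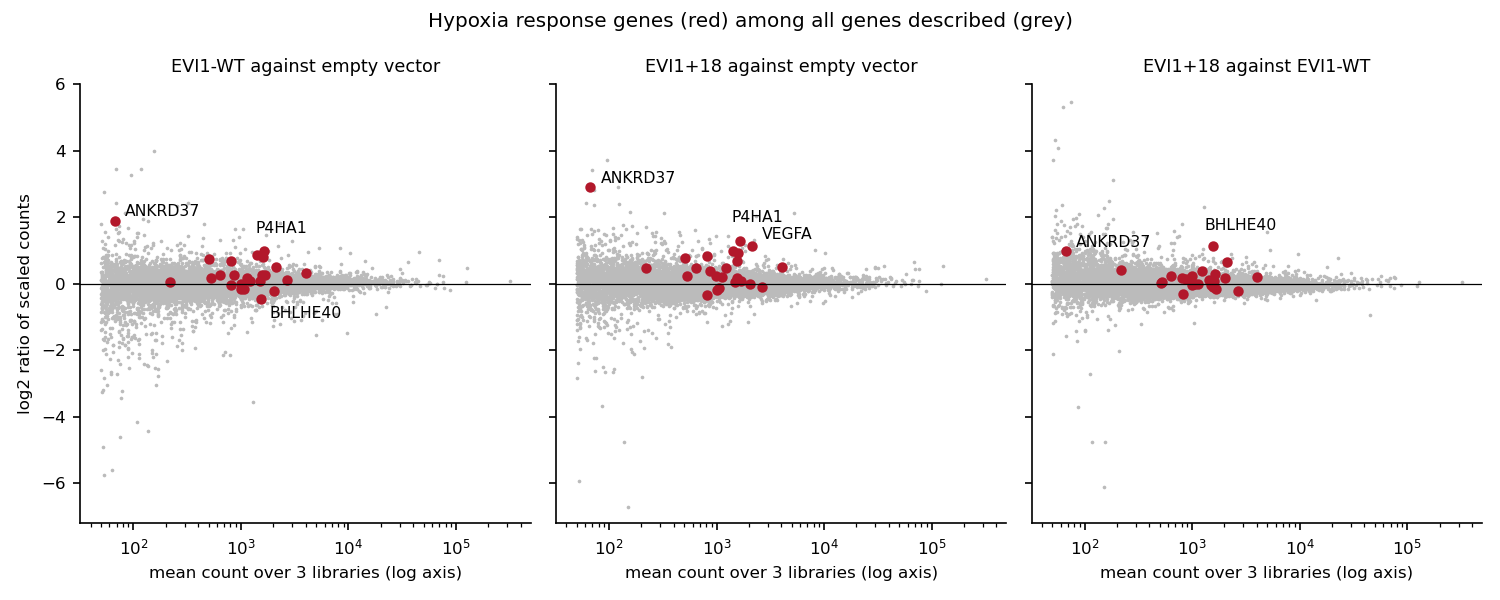
Log2 ratio of scaled counts against mean count (log axis) for all 10406 genes described (grey) and the 24 hypoxia response genes among them (red), in the 3 comparisons. ANKRD37 is the red point of lowest mean count, and P4HA1 and VEGFA lie at 1.29 and 1.16 in the middle panel.

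Promoters are shown for ANKRD37, P4HA1 and BHLHE40, which were at least 2-fold apart in a comparison, met the minimum count and had a sequence at hand, and for BNIP3, chosen after its values were seen because its window held the most matches. Each run holds the 250 bases before and the 50 bases after the RefSeq transcription start, 5′ to 3′ on the gene's strand, with matches of ACGTG or GCGTG on either strand in capitals. The positions, on GRCh38.p14, are chr4:185396591-185396890 on the plus strand for ANKRD37, chr10:73096817-73097116 on the minus strand for P4HA1, chr3:4979187-4979486 on the plus strand for BHLHE40 and chr10:131981874-131982173 on the minus strand for BNIP3.
ANKRD37: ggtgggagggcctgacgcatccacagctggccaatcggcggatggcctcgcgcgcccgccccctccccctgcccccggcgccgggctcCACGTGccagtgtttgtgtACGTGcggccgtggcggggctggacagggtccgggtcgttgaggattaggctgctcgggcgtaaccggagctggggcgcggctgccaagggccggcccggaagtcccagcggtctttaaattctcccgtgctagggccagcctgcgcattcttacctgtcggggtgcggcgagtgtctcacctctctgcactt
P4HA1: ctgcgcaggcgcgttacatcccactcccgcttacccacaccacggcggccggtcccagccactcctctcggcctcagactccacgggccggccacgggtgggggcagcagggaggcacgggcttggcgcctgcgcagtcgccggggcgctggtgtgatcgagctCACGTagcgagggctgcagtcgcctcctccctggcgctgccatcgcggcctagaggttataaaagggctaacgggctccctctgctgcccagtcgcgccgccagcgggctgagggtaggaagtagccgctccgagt
BHLHE40: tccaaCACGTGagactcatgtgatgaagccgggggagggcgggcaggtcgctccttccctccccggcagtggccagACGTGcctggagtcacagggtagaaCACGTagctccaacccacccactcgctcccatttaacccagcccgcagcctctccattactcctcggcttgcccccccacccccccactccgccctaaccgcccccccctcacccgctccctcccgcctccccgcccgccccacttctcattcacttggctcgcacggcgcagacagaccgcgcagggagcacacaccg
BNIP3: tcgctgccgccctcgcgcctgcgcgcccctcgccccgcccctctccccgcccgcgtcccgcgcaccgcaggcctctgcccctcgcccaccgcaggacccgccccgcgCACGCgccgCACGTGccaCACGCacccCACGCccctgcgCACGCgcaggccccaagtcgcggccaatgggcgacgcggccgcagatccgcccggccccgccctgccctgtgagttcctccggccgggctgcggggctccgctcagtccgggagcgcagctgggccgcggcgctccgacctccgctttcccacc

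ANKRD37 held the palindrome CACGTG, which reads as ACGTG on both strands, 162 bases before the start and a further ACGTG at 143 bases. P4HA1 held 1 match, on the opposite strand 86 bases before the start. BHLHE40 had matches at 245, 174 and 149 bases before the start, the farthest again a CACGTG. In BNIP3 a CACGTG at 134 bases before the start lay among 4 matches of GCGTG on the opposite strand, at 143, 125, 116 and 104 bases. The motif is short and common, so a match is a description and not a binding site.

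Promoter windows were matched for 25 of the 32 genes, and VHL, VEGFA, BNIP3L, LOXL2, JMJD6, NDRG1 and ANKZF1 were not matched. ACGTG was present on either strand in 13 of the 25 windows (52.0%) and in 21.4% of all 35116 windows in the table. GCGTG was present in 11 (44.0%), beside 36.5% of all windows, and CACGTG, a part of the ACGTG matches, in 6 (24.0%), beside 7.26%. The sets are unlike, since each of the 25 genes had 1 window, while the 35116 windows were not limited to 1 per gene or to the genes described. The genes had been chosen by name from the HIF pathway, regulators as well as targets, with earlier results of these data known. The share was computed from sequence alone and describes the list. A match did not go with a difference in every case: EGLN3 and P4HA2, among the genes at least 1.5-fold higher in both EVI1 libraries, held neither motif in this window, while WSB1, EGLN2 and FAM162A held ACGTG and had ratios between 0.872 and 1.19 to empty vector.

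**Figure D3:**
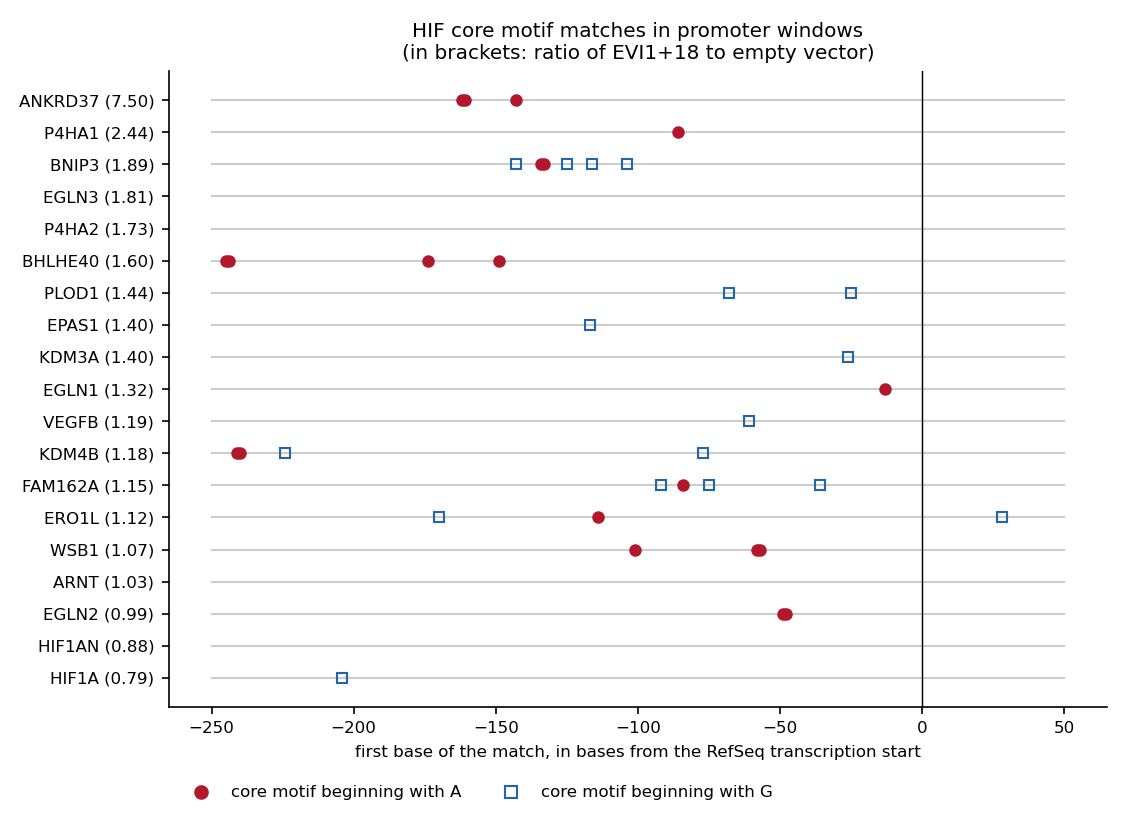
Matches of the HIF core motif in the windows of the 19 genes that had both a mean of at least 50 counts and a matched promoter, placed by distance in bases from the RefSeq start and ordered by the ratio of EVI1+18 to empty vector. Filled circles are matches beginning with A and open squares those beginning with G, and matches occur both at the top of the order, as in ANKRD37 (7.5), and near its foot, as in EGLN2 (0.992).

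The HIF subunits showed no common shift. HIF1A, the alpha subunit present in most cells, was at 46.7 CPM with empty vector, 46.1 with EVI1-WT and 37.1 with EVI1+18. It was thus lowest in the EVI1+18 library, at a ratio of 0.794 (0.719 to 0.876) to empty vector and 0.805 (0.729 to 0.889) to EVI1-WT, whereas VEGFA, P4HA1 and ANKRD37 were highest there. EPAS1, which codes for HIF-2 alpha, went the other way, with 9.97, 10.4 and 13.9 CPM and a ratio of 1.40 (1.15 to 1.69) for EVI1+18 against empty vector. ARNT, the shared partner, was at 76.6, 80.7 and 79.1 CPM, and all 3 of its intervals included 1. On the TPM scale, which allows levels of different genes to be compared, EPAS1 stood at 0.165, 0.174 and 0.290 of HIF1A in the 3 libraries, so HIF1A remained the more abundant alpha subunit.

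Among the oxygen sensors, EGLN3 differed most from empty vector. EGLN3, a prolyl hydroxylase that is itself a HIF target, was at 28.8 CPM with empty vector, 46.1 with EVI1-WT and 52.1 with EVI1+18. Both EVI1 libraries were above empty vector, with ratios of 1.60 (1.44 to 1.79) and 1.81 (1.63 to 2.01). EGLN1, the main prolyl hydroxylase of the HIF pathway and also a target, followed in the same order at 38.8, 46.4 and 51.4 CPM, with ratios of 1.20 (1.08 to 1.32) and 1.32 (1.20 to 1.46). EGLN2, a family member not known as a HIF target, was at 112, 98.0 and 112 CPM, with ratios of 0.872 (0.817 to 0.929) and 0.992 (0.934 to 1.05).

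The balance within the family therefore differed between libraries. EGLN2 had the highest TPM of the EGLN genes in each library, and EGLN3 stood at 0.197 of the EGLN2 level with empty vector, 0.366 with EVI1-WT and 0.359 with EVI1+18. A read-through gene, RAB4B-EGLN2, shares exons with EGLN2 but was listed at 0 counts in every library. VHL, the part of the ubiquitin ligase that recognises hydroxylated HIF, was at 139.6, 151 and 131 CPM, and HIF1AN, the asparagine hydroxylase, at 57.0, 51.5 and 50 CPM. For VHL the ratios to empty vector were 1.08 (1.02 to 1.14) and 0.938 (0.888 to 0.991), and for HIF1AN 0.905 (0.827 to 0.989) and 0.878 (0.805 to 0.958).

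VEGFA differed between all 3 libraries. This gene, for the growth factor that drives vessel formation, was at 70.7 CPM with empty vector, 100.4 with EVI1-WT and 157 with EVI1+18. The EVI1+18 library stood above both others, at 2.23 (2.09 to 2.38) times empty vector and 1.57 (1.48 to 1.66) times EVI1-WT, and EVI1-WT stood at 1.42 (1.32 to 1.53). VEGFB, a related factor little controlled by oxygen, was at 25.0, 28.3 and 29.7 CPM, at ratios to empty vector of 1.13 (0.995 to 1.29) and 1.19 (1.05 to 1.35). In TPM, VEGFA was 1.54 times VEGFB with empty vector and 2.91 times with EVI1+18. ADM, which codes for the vasodilator peptide adrenomedullin and is a strong target in many tissues, had 0, 1 and 2 counts and was not measurable at this depth.

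BNIP3 and BNIP3L code for related proteins of the outer mitochondrial membrane that mark mitochondria for removal, and BNIP3L is known for this role in maturing red cells. BNIP3 was at 53.4 CPM with empty vector, 94.1 with EVI1-WT and 101 with EVI1+18. BNIP3L was at 45.9, 84.4 and 91.5 CPM. For both genes the EVI1 libraries lay close together and well above empty vector. The ratios to empty vector were 1.76 (1.63 to 1.91) and 1.89 (1.75 to 2.05) for BNIP3, and 1.84 (1.69 to 2.0) and 1.99 (1.84 to 2.17) for BNIP3L, the last just under the 2-fold line. Between the EVI1 libraries they were at 1.07 (1.01 to 1.15) and 1.08 (1.01 to 1.16). FAM162A, a mitochondrial protein described as a mediator of hypoxic cell death, was at 54.5, 62.0 and 62.5 CPM, with ratios of 1.14 (1.04 to 1.24) and 1.15 (1.06 to 1.25). It had the highest TPM of the 32 genes in each library, between 157.71 and 170.41.

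The collagen prolyl hydroxylases formed a second pair with a shared pattern. P4HA1, a catalytic subunit that hydroxylates proline in collagen in the endoplasmic reticulum, was at 47.2 CPM with empty vector, 93.2 with EVI1-WT and 115 with EVI1+18. Its ratios to empty vector were 1.98 (1.82 to 2.15) and 2.44 (2.25 to 2.64), so that with EVI1-WT it fell just short of 2-fold. P4HA2, the alternative catalytic subunit, was at 18.0, 30.4 and 31.2 CPM, with ratios of 1.69 (1.47 to 1.94) and 1.73 (1.52 to 1.99). P4HA1 was higher with EVI1+18 than with EVI1-WT, at 1.23 (1.16 to 1.31), while the interval for P4HA2 included 1, at 1.03 (0.916 to 1.15). P4HA2 shares exon bases with the antisense gene P4HA2-AS1, which was listed at 0 counts in all libraries. P4HB, the common beta subunit and not a member of the list, was at 1.05 (1.02 to 1.08) and 1.18 (1.15 to 1.21).

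PLOD1, a lysyl hydroxylase of collagen, was at 172 CPM with empty vector, 215 with EVI1-WT and 247 with EVI1+18, with ratios of 1.25 (1.19 to 1.31) and 1.44 (1.38 to 1.5). ERO1L, an oxidase that helps form disulfide bonds in the endoplasmic reticulum, was at 73.9, 89.2 and 83.0 CPM. Its ratios to empty vector were 1.21 (1.12 to 1.30) and 1.12 (1.05 to 1.21), with EVI1-WT the highest library. The remaining collagen enzymes were scarce. PLOD2, the lysyl hydroxylase most often named as a HIF target, had 23, 5 and 15 counts, highest with empty vector, at 0.215 (0.0638 to 0.578) with EVI1-WT and 0.569 (0.276 to 1.14) with EVI1+18. LOXL2, a lysyl oxidase of the matrix, had 4, 2 and 4 counts, a ratio of 0.494 (0.0447 to 3.45) with EVI1-WT, and LOX had none.

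Of the dioxygenases, KDM3A set EVI1+18 apart from both other libraries. KDM3A, a demethylase of histone H3 lysine 9 and a HIF target, was at 55.1 CPM with empty vector, 59.1 with EVI1-WT and 77.2 with EVI1+18, and the EVI1+18 library was at 1.40 (1.29 to 1.52) times empty vector and 1.31 (1.21 to 1.41) times EVI1-WT. KDM4B, another histone demethylase among HIF targets, had the same order at a smaller size, with 49.0, 49.1 and 57.8 CPM and a ratio of 1.18 (1.08 to 1.29) for EVI1+18 against empty vector. JMJD6, a lysyl hydroxylase of splicing proteins, was at 59.5, 54.2 and 54.6 CPM, at 0.910 (0.834 to 0.993) and 0.917 (0.843 to 0.998) of empty vector.

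BHLHE40 had the lowest ratio of the 24 genes with EVI1-WT against empty vector. This transcriptional repressor gene, induced by hypoxia and by other stimuli, was at 72.3 CPM with empty vector, 52.6 with EVI1-WT and 116 with EVI1+18. EVI1-WT was thus the lowest library and EVI1+18 the highest, with ratios to empty vector of 0.728 (0.670 to 0.792) and 1.60 (1.5 to 1.71) and a ratio between the EVI1 libraries of 2.20 (2.04 to 2.37). With TPM the value for EVI1+18 against empty vector was 1.49. Its antisense gene BHLHE40-AS1 had at most 3 counts. RORA, a nuclear receptor gene, had no count in any library.

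ANKRD37 had the largest ratios to empty vector of the 24 genes. It codes for an ankyrin repeat protein whose function is little known and whose gene is a direct HIF target. It had 15 counts with empty vector, 57 with EVI1-WT and 129 with EVI1+18, or 0.831, 3.12 and 6.24 CPM. The libraries stepped up in that order, at 3.76 (2.10 to 7.14) and 7.5 (4.38 to 13.8) times empty vector. Between the EVI1 libraries its ratio of 2.0 (1.45 to 2.78) rounded up to 2-fold without reaching it, and it did reach it when libraries were scaled by their totals alone.

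CA9, a membrane carbonic anhydrase often used as a hypoxia marker, was not detected with empty vector at this depth and was scarce with the EVI1 vectors, on 0, 10 and 7 counts. With a floor of 3 counts put in place of the 0 with empty vector, its ratio was 3.30 with EVI1-WT and 2.04 with EVI1+18. These values leave out counting error in the 10 and 7 counts, so they are not lower limits. NDRG1, a stress-response gene strongly induced by hypoxia in many cell types, was lower in both EVI1 libraries, with 41, 24 and 11 counts. It was lowest with EVI1+18, at 0.234 (0.109 to 0.464), and at 0.579 (0.334 to 0.981) with EVI1-WT. INSR, the insulin receptor gene, had 28, 5 and 13 counts and was lowest with EVI1-WT, at 0.177 (0.0532 to 0.463), and at 0.405 (0.193 to 0.808) with EVI1+18. PLOD2, given above, was also below empty vector in both. The stromal marker COL1A2, at 0.0213 and 0.188, and the lymphoid marker CD3D, at 0.326 and 0.356, were lower in the same libraries as these 3 genes, and their part in these ratios was not tested.

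ANKZF1, a factor of ribosome quality control at mitochondria, was at 27.8 CPM with empty vector, 33.4 with EVI1-WT and 39.1 with EVI1+18, with ratios of 1.20 (1.07 to 1.36) and 1.41 (1.26 to 1.58). It shares exon bases with GLB1L on the opposite strand, which had between 28 and 40 counts. WSB1, a ubiquitin ligase adaptor that acts on VHL, was at 81.3, 97.1 and 87.3 CPM. It was highest with EVI1-WT, at 1.19 (1.11 to 1.28), while the interval for EVI1+18 reached 1, at 1.07 (1.0 to 1.15).

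**Figure D4:**
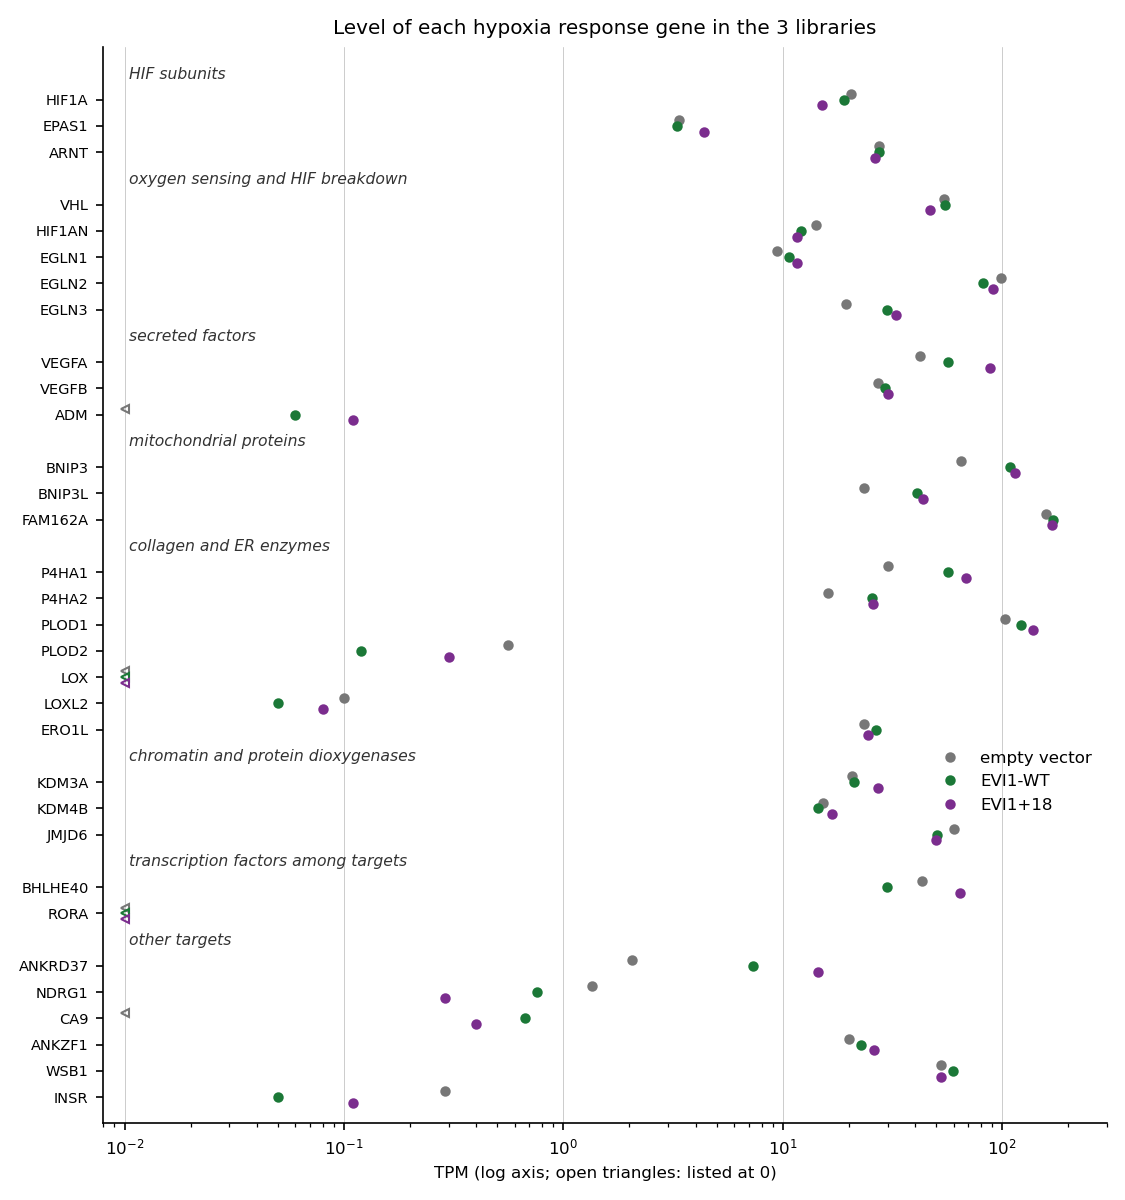
TPM values as deposited by the authors (log axis) for the 32 genes in the empty vector (grey), EVI1-WT (green) and EVI1+18 (purple) libraries, grouped by role; open triangles are values listed at 0. Grey points lie left of green and purple for EGLN3, VEGFA, BNIP3, BNIP3L, P4HA1, P4HA2 and ANKRD37, and right of them for NDRG1, INSR and PLOD2.

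By scaled counts, 15 of the 24 genes shared 1 order of levels over the libraries. ANKRD37, which met the minimum only through the EVI1 libraries, was among them. In these 15 the level was lowest with empty vector, intermediate with EVI1-WT and highest with EVI1+18, an order found in 18.1% of all genes described. For several of them, such as KDM4B, VEGFB and FAM162A, neighbouring levels in that order were within each other's counting error. ARNT, ERO1L and WSB1 were highest with EVI1-WT, and HIF1A and HIF1AN were lowest with EVI1+18 and highest with empty vector. VHL was highest with EVI1-WT and lowest with EVI1+18, BHLHE40 was lowest with EVI1-WT and highest with EVI1+18, and EGLN2 and JMJD6 were lowest with EVI1-WT. The order of the 15 genes depended on the scale. In TPM it did not hold for EPAS1 (3.37, 3.31 and 4.38), FAM162A (157.71, 170.41 and 168.76) and KDM4B (15.21, 14.43 and 16.67).

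Related lists placed these values in the wider pathway. Of 15 further genes of the HIF machinery, 12 had a mean of at least 50 counts. Of the 12, 0 were at least 2-fold higher or lower in any comparison, beside 0.211% to 1.70% of all genes per direction. Their median log2 ratio to empty vector was 0.06 with EVI1-WT and 0.04 with EVI1+18. HSP90AA1, a chaperone of HIF alpha and the most abundant of them, was at 1.03 and 0.949 of empty vector. OS9, next by mean count though not by TPM, was at 0.946 and 1.13. CITED2, which competes with HIF for its coactivators and is itself a target, was the 1 gene of this list past 1.5-fold, at 56.0, 92.1 and 99.8 CPM and ratios of 1.65 (1.52 to 1.78) and 1.78 (1.65 to 1.92). It was named after its values were seen.

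Glycolysis and glucose uptake genes, the metabolic branch of the response, had a median of 0.09 with EVI1-WT. There 0 of 21 were at least 2-fold higher, beside 0.702% of all genes, and 0 lower, beside 1.70%. With EVI1+18 the median was 0.35, and 3 of 21 were at least 2-fold higher, beside 1.01% of all genes, and 0 lower, beside 0.836%. GAPDH and ENO1, the most abundant, were at 1.19 and 1.03 with EVI1-WT. The 3 genes higher with EVI1+18 were PFKFB4 at 2.72 (2.46 to 3.02), ENO2 at 2.41 (1.99 to 2.93) and PDK1, a brake on mitochondrial pyruvate use, at 2.10 (1.88 to 2.36). Of 32 further hypoxia targets, 18 had a mean of at least 50 counts, with medians of 0.15 and 0.28. DDIT4, an inhibitor of MTOR signalling, and PPFIA4, a liprin gene, were at least 2-fold higher with EVI1-WT, 2 of 18 beside 0.702% of all genes. At least 2-fold lower were 0, beside 1.70%, and GBE1, named after its values were seen, was past 1.5-fold lower, at 0.665 (0.582 to 0.759). PPFIA4 had 11, 109 and 166 counts, so it met the minimum only through the EVI1 libraries, and without it DDIT4 alone remained. With EVI1+18, RAB20, a small GTPase gene at 2.50 (1.88 to 3.35), joined DDIT4 and PPFIA4, 3 of 18 beside 1.01%. At least 2-fold lower were 0, beside 0.836%, and without PPFIA4 the higher genes were DDIT4 and RAB20. DDIT4 was at 108, 231 and 472 CPM and RAB20 at 3.71, 4.60 and 9.28 CPM, so both, like VEGFA and ANKRD37, also stood apart between the EVI1 libraries, at 2.05 (1.97 to 2.12) and 2.02 (1.55 to 2.64).

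Of 30 paralogues and receptors of the 32 genes, 10 had a mean of at least 50 counts, with medians of 0.04 and 0.11 against empty vector. Of the 10, 0 were at least 1.5-fold higher or lower in any comparison, beside 0.846% to 3.95% of all genes per direction. FLT1, KDR, NRP1, NRP2, CALCRL, RAMP1, RAMP2 and RAMP3 had at most 5 counts and could not be assessed. Under the minimum count ERO1LB had 35, 6 and 8 counts, at 0.169 (0.0583 to 0.407) and 0.199 (0.0799 to 0.438). LOXL4 went the other way, with 5, 11 and 17 counts. KDM3B, the closest relative of KDM3A, was at 1.0 and 1.02, and P4HB, given above, was the most abundant of the list. NDRG3, a relative of NDRG1 named after its values were seen, was at 1.21 (1.12 to 1.32) and 1.24 (1.14 to 1.34). Of 11 genes that overlap or adjoin a member, 10 were in the tables and 4 had a mean of at least 50 counts. Of these 4, 0 were at least 2-fold higher or lower in any comparison, beside 0.211% to 1.70% of all genes per direction. ATG9A and UFSP2, the highest of them by mean count, were at 1.03 and 1.20, and at 1.05 and 1.01, of empty vector.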

How the data were processed

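Per the file headers, each of the 3 deposited tables lists for 26334 genes the expected count, TPM and FPKM that the authors computed. The deposited FPKM values were not used. The submitters' processing notes name hg19 and bcl2fastq. The aligner, counter and strand setting were not given in the sources used here, so genes that share exons stay uncertain. Overlaps were taken from GENCODE (GRCh38), by name only. Expected counts were rounded and scaled with TMM factors (edgeR 4.0.16, R 4.3.3), and ratios were given exact Clopper-Pearson intervals (scipy 1.17.1), with a floor of 3 counts where a library had 0. PCR reads that carry no molecular identifiers are not independent, so intervals and floors cover counting error only. The code was tested on simulated data.

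Each construct had 1 library, so no test was run. The members and lists were chosen with earlier results of these data known. All 32 genes are named. Of each related list, up to 4 genes past 2-fold per comparison are named, or the 2 of highest mean count where none passed. Promoters come from RefSeq (GRCh38.p14). Alternatives were the size factors of DESeq2 1.42.0, library totals, TPM, other minimum counts and a 1.5-fold rule.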

Additional observations from a re-analysis of the deposited data

How the results depend on the processing

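Of 85 ratios of single genes, all 85 stayed within their counting interval with size factors and with library totals, and 74 did so with TPM; no ratio past 2-fold changed direction. TPM moved the median log2 ratio of all genes described to -0.067 for EVI1-WT and -0.104 for EVI1+18 against empty vector. Between the EVI1 libraries it was -0.032. Ratios that left their interval with TPM included BHLHE40 (1.60 to 1.49) and PLOD1 (1.44 to 1.34) for EVI1+18 against empty vector. EPAS1, ARNT and KDM4B changed side of 1 in at least 1 scaling for EVI1-WT against empty vector. So did ARNT and WSB1 for EVI1+18 against empty vector, and FAM162A and JMJD6 for EVI1+18 against EVI1-WT. The ratios that changed side were close to 1.

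The counts of genes past 2-fold are small and moved with the minimum count. For EVI1-WT against empty vector, a minimum mean of 10 gave 2 lower genes in place of 0, a minimum of 1 gave 2 higher and 3 lower, a 1.5-fold rule gave 6 higher, and leaving out ANKRD37, chosen after seeing the data, gave 0 higher. For EVI1+18 against empty vector, a minimum of 10 or of 1 gave 2 lower genes, a minimum of 1 gave 4 higher in place of 3, leaving out ANKRD37 gave 2 higher, and the 1.5-fold rule gave 8 higher. For EVI1+18 against EVI1-WT, library totals gave 2 higher genes, a minimum of 10 or of 1 gave 3 higher and 1 lower, and the 1.5-fold rule gave 3 higher. The genes added by a lower minimum rest on few counts. The median for EVI1+18 against empty vector was 0.34 with TPM and 0.25 with a minimum of 10 or of 1. EGLN2 summed with RAB4B-EGLN2 kept its ratios, since the partner had 0 counts. No paired analysis was possible because each construct had 1 library, and no replicate could be left out for the same reason.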
